A study of Mus musculus with 2 samples.

Results

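The matrix metalloproteinase (MMP) genes of marrow cells and the genes of their tissue inhibitors (TIMPs) were compared between a pair of populations sorted from mouse bone marrow. The 10 genes, 8 of MMPs (Mmp2, Mmp8, Mmp9, Mmp12, Mmp13, Mmp14, Mmp19 and Mmp25) and 2 of inhibitors (Timp1 and Timp2), were taken by symbol from the 19935 genes that single-gene probe sets measured, and each had 1 probe set. Cells were sorted by the surface levels of RANK (the RANKL receptor) and c-Fms (the M-CSF receptor), which both act in osteoclast formation, into RANKhighFmslow cells and RANKlowFmshigh cells. Both were sorted from mononuclear cells that a gradient had separated from the marrow of ddY mice, an outbred strain, at 6 weeks of age. There was 1 array per population, the number of mice behind each is not stated in the labels, and all values below are therefore single measurements without a replicate check, test or p-value.

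MMPs are zinc-dependent endopeptidases that are made as inactive proenzymes and cut collagens, gelatins, other matrix proteins and many cytokines. Most are secreted, some are held at the cell membrane, and TIMPs block their active sites. In bone marrow, neutrophil-lineage cells store several MMPs in granules, macrophages secrete others, and osteoclasts and osteoblast-lineage cells use MMPs in the resorption and remodelling of bone.

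Differences are log2 intensities of RANKhighFmslow cells minus RANKlowFmshigh cells. As a guide to background, the 95th percentile of 1189 olfactory and vomeronasal receptor genes was taken, which was 83.8 in RANKhighFmslow cells and 81.8 in RANKlowFmshigh cells. Where the lower value of a gene lay under the guide of its array, the fold is a bound against that guide and is written "at least". Where neither value reached its guide, no fold is given, since the gene could not be told from background. The central 95% of the receptor genes' own differences ran from -0.27 to 0.38. Csf1r, which encodes c-Fms, stood at 164 in RANKhighFmslow cells and 821 in RANKlowFmshigh cells, the direction of its label, and Tnfrsf11a, which encodes RANK, at 104 and 119, against its label. The name RANKhighFmslow therefore refers to the sort and not to the RANK transcript.

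Among the 10 genes, 3 proteases known from neutrophils (Mmp8, Mmp9 and Mmp25) and the inhibitor Timp2 were above background and higher in RANKhighFmslow cells. Mmp9 was at least 3.38-fold higher in RANKhighFmslow cells, and no other member reached 2-fold. Mmp8 and Timp2 lay above the guide in both populations and were 1.44-fold and 1.60-fold higher in RANKhighFmslow cells. Mmp25 lay above it in RANKhighFmslow cells alone, at least 1.35-fold higher. Mmp2 passed its guide by a small margin in RANKlowFmshigh cells, and the other 5 members were below it in both. By the 2-fold rule 1 of the 10 members was higher and 0 were lower, beside 2.44% and 2.38% of all 19935 genes. Among the 12089 genes above the guide in at least 1 population, the shares past 2-fold were 4.01% and 3.92%. At 1.5-fold, by measured values, 3 members were higher (Mmp9, Mmp25 and Timp2) and 0 lower, beside 6.16% and 7.05% of all genes. A count of 1 in 10 is too small to set the family apart from all genes. The median difference was 0.24 over the 10 members and 0.01 over all genes. The 0.24 is the midpoint of Mmp12 and Mmp14, which were under the guide in both populations. The central range of the receptor genes describes single genes, so it is no measure for a median of 10. Of the members, 5 lay inside that range, 4 above it (Mmp8, Mmp9, Mmp25 and Timp2) and 1 below it. The 1 below was Mmp19, which was under the guide in both populations. Whether the family as a whole was shifted was not tested.

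**Figure D1:**
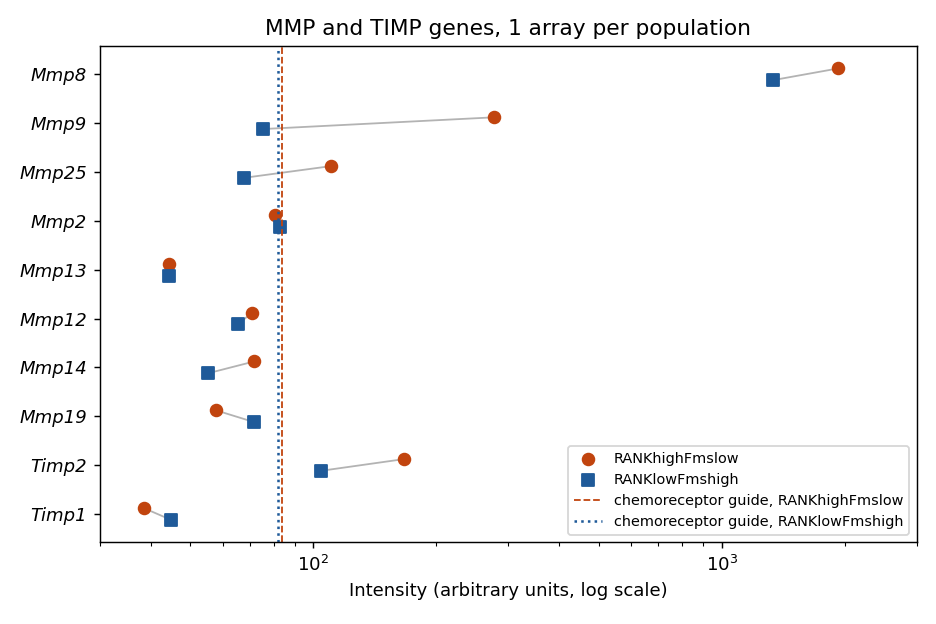
Intensity (arbitrary units, log scale) of the 10 genes in RANKhighFmslow cells (circles) and RANKlowFmshigh cells (squares), 1 array each, with the 95th percentile of the chemoreceptor genes on each array as vertical lines. Mmp9 lies at 277 against 75.2, Mmp8 and Timp2 lie right of the lines in both populations, and 5 genes lie left of them in both.

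Among the proteases of neutrophil granules, Mmp9 differed most. Mmp9 (probe set 10478633), gelatinase B, is kept in the gelatinase granules of neutrophils and is also made by osteoclasts. Its intensity was 277 in RANKhighFmslow cells and 75.2 in RANKlowFmshigh cells, so that it was above the guide in RANKhighFmslow cells alone. The log2 difference was 1.88 as measured, but the lower value was under the guide, so that the bound of at least 3.38-fold is what can be stated. In RNA of bulk cells, here and below, fewer cells of a type and less RNA per cell cannot be told apart. Mmp9 was also the only gene past 2-fold among the 29 MMP and inhibitor genes measured.

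Mmp8 (probe set 10583100), neutrophil collagenase, cuts fibrillar collagens and is stored in the secondary granules of neutrophils. It stood at 1925 in RANKhighFmslow cells and 1333 in RANKlowFmshigh cells, far above the guide in both. Its log2 difference was 0.53, with 1411 genes higher. Mmp25 (probe set 10448278), a protease held on the membrane by a lipid anchor and known from human neutrophils, stood at 110.2 in RANKhighFmslow cells and 67.5 in RANKlowFmshigh cells. Its measured difference was 0.71, and since the lower value was under the guide, only an excess of at least 1.35-fold can be stated. All of Mmp8, Mmp9 and Mmp25 were thus higher in RANKhighFmslow cells, with Mmp8 alone clearly present in both populations.

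Set beside other granule genes, these proteases did not share a single size of difference. The secondary granule list had a median of 1.91, with 6 of 9 genes past 2-fold upward and 1 downward, and the difference of Mmp8 was smaller than those of 8 of its 9 genes. Among them, lactoferrin (Ltf) stood at 2487 against 452, the cathelicidin gene Camp at 7136 against 1257 and Ceacam10 at 375 against 99.5. The oxidase subunit gene Cyba, which monocytes also use, ran the other way, at 974 against 2105. The primary granule list, whose proteins are made earliest in neutrophil development, had 0 of 6 genes past 2-fold in either direction and a median of -0.22. There the difference of Mmp8 was larger than those of 5 of 6 genes, among them the myeloperoxidase gene Mpo (3026 against 4434). Ms4a3 was the exception, at 894 against 509. The list of gelatinase granule and late neutrophil genes had 4 of 7 genes 2-fold or more higher as measured and a median of 1.01, and Mmp9 lay above 5 of the 7. Retnlg, a resistin-like protein gene, led the list at 3059 against 177, followed by the chemokine receptor gene Cxcr2 at 1113 against 182. Cd177, a neutrophil surface antigen, stood at 479 against 304 and the deiminase gene Padi4 at 91.1 against 45.4, at least 1.11-fold. Padi4 is 1 of the 4 only by its measured difference, which is also the list median. The granule lists were chosen with earlier results of these data known, and they also hold genes of other proteins, such as the receptor gene Cxcr2. The part of granulocytes in the MMP differences was not tested.

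Most markers of granulocytes and the markers of B-lineage, erythroid, T and NK cells were higher in RANKhighFmslow cells, as were these proteases. Markers of monocytes were lower. Of 15 neutrophil markers measured, 8 were 2-fold or more higher in RANKhighFmslow cells and 0 lower, and their summed intensity was 47635.5 in RANKhighFmslow cells and 20470.5 in RANKlowFmshigh cells. By sign alone 11 were higher and 4 lower, the latter being Mpo, Prtn3, Ctsg and Csf3r (298 against 377). All 15 were above the guide in both populations. Of 7 eosinophil markers 5 were 2-fold or more higher as measured, with sums of 12331 and 1283 over the 7. The largest differences were those of Prg3 (2582 against 172), Ear6 (1197 against 93.3) and Prg2 (7858 against 661). Prg3 and Prg2 are granule protein genes. Of the 5, Epx and Il5ra were under the guide in RANKlowFmshigh cells, and for Il5ra only at least 1.21-fold can be stated. All 11 B-lineage markers and all 10 erythroid markers measured were past 2-fold higher, with medians of 1.84 and 2.36, as were 6 of 10 T and NK cell markers (median 1.21) and 1 of 5 megakaryocyte and platelet markers (median 0.69). Granulocyte markers were therefore not the only ones higher beside the MMP genes. Of 12 monocyte markers 0 were higher and 8 were lower past 2-fold in RANKhighFmslow cells, with sums of 8724 and 29258, and none was under the guide. F13a1, the coagulation factor XIII A gene, led them at 517 against 4177. Csf1r, whose product c-Fms was used for the sort, is counted among the 12, among the 8 and in the sums. None of the 12 had a difference as high as that of Mmp8, Mmp9, Mmp25 or Timp2.

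**Figure D2:**
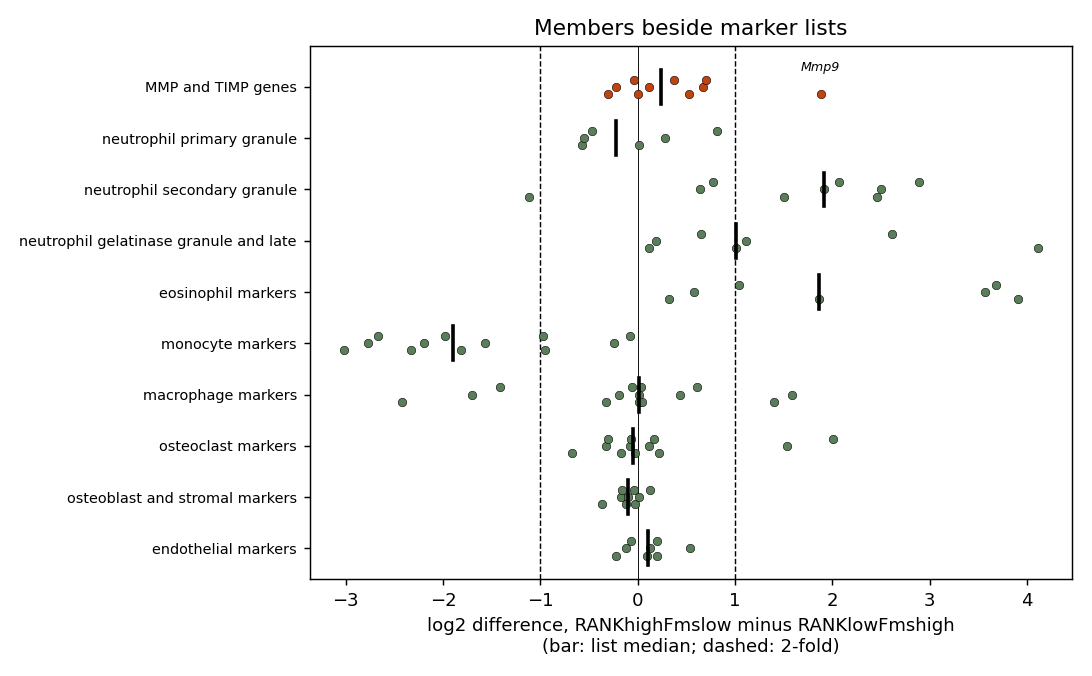
Log2 difference, RANKhighFmslow minus RANKlowFmshigh cells, of the 10 MMP and TIMP genes and of the genes of 9 marker lists; each point is a gene, the bar is the list median and dashed lines mark 2-fold. Secondary granule genes centre on 1.91, primary granule genes on -0.22 and monocyte markers on -1.90.

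Inhibitors were compared next. Timp2 (probe set 10393559), which inhibits MMPs and also joins Mmp14 and pro-Mmp2 in the complex that activates Mmp2, stood at 166 in RANKhighFmslow cells and 104 in RANKlowFmshigh cells. Both values were above the guide, and the log2 difference of 0.67 had 983 genes above it. Timp1, an inducible inhibitor that binds pro-Mmp9, stood at 38.4 in RANKhighFmslow cells and 44.7 in RANKlowFmshigh cells, under the guide in both. Timp2 was thus the sole inhibitor among the members with a measurable level. None of the other inhibitor genes measured reached the guide. Timp3 (57.9 against 58.2), Timp4 (43.7 against 41.6), the membrane-anchored inhibitor Reck (78.7 against 67.4) and the alpha-2-macroglobulin family genes A2m (57.3 against 54.7) and Pzp (45.7 against 51) were under the guide in both populations.

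The sequence upstream of the transcription start is shown for the 3 genes that were above background and had an entry in the RefSeq promoter table, to show how their start regions differ in composition and motif content. Each has the 250 bases before the start, 5' to 3' on the gene's strand, build GRCm38.p6, and capitals mark matches to the motifs given after it.
Mmp8 (chr9:7558179-7558428, strand +): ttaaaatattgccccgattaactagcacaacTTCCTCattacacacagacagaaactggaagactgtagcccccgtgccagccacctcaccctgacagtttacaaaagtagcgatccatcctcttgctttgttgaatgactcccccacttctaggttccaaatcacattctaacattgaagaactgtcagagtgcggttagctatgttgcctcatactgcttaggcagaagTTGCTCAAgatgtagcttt
Mmp25 (chr17:23645270-23645519, strand -): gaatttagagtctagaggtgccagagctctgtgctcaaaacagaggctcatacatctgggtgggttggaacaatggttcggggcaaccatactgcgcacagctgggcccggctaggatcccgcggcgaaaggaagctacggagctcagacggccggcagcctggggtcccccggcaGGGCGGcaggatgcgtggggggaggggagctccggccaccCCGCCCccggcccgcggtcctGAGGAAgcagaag
Timp2 (chr11:118355412-118355661, strand -): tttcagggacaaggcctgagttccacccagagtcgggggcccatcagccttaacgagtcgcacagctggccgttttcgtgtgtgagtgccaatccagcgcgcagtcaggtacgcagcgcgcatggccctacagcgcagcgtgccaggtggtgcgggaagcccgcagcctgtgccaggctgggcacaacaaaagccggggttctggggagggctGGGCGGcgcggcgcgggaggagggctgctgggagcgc

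The motifs searched were TATAA on the sense strand (a TATA box core), and on both strands TGANTCA (AP-1), TTGCNNAA (C/EBP), GAGGAA (PU.1 and other ETS factors) and GGGCGG (SP factors). They occurred in 16%, 6.75%, 9.56%, 23.3% and 32.7% of 32851 windows of the same length, and no matches of different motifs overlapped in the members. Mmp8 held 1 C/EBP match, TTGCTCAA at 19 to 12 bases before the start, and 1 GAGGAA match on the opposite strand. Mmp25 held 1 GAGGAA and 2 GGGCGG matches, and Timp2 held 1 GGGCGG match. Windows were matched for 7 of the 10 members, with 2 starts for Mmp12. Among those not printed, Mmp13 held TGACTCA at 35 to 29 bases and TATAA at 16 to 12 bases before the start, and 1 of the Mmp12 windows held TGAGTCA. The other Mmp12 window held 1 C/EBP match, TTAAGCAA, and 1 GAGGAA match on the opposite strand, the same pair of motifs as Mmp8. Mmp14 held 2 GGGCGG matches and Timp1 held 1. Mmp2, Mmp9 and Mmp19 had no entry. A match describes letters and is not evidence of binding.

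The genes of gelatinase A, Mmp2, and of its membrane activator, Mmp14, were at or under background. Mmp2, gelatinase A, is chiefly made by stromal cells. It stood at 80.7 in RANKhighFmslow cells, under the guide, and at 83.0 in RANKlowFmshigh cells, just above it, a log2 difference of -0.04. Mmp14, a transmembrane collagenase that activates pro-Mmp2, stood at 71.6 in RANKhighFmslow cells and 55.3 in RANKlowFmshigh cells. Its measured difference of 0.37 lay within the central range of the receptor genes, and both values were under the guide. Neither gene thus gave a fold that can be stated, whereas Timp2, their partner, did.

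The collagenase of bone and the macrophage proteases were likewise low. Mmp13, the interstitial collagenase of osteoblasts and hypertrophic chondrocytes in mice, had the identical value of 44.2 in both populations. Such exact ties occurred for 406 of 28815 probe sets and for 245 of 19935 genes. Mmp12, the macrophage elastase, stood at 70.8 in RANKhighFmslow cells and 65.3 in RANKlowFmshigh cells. Mmp19, a protease of broad matrix specificity, stood at 57.7 in RANKhighFmslow cells and 71.5 in RANKlowFmshigh cells, and its difference of -0.31 was the lowest of the members. All of these values were under the guide. Of 9 osteoblast and stromal markers measured, 6 were under the guide in both populations, with sums of 661 in RANKhighFmslow cells and 709 in RANKlowFmshigh cells. Of 12 osteoclast markers 5 were under it in both, among them Ctsk, which encodes cathepsin K, and the calcitonin receptor gene Calcr. Past 2-fold, 2 osteoclast markers were higher in RANKhighFmslow cells, Car2 (3300.1 against 824) and Acp5 (546 against 188), and 0 were lower. By sign alone 5 of the 12 were higher and 7 lower, around a median of -0.05. Itgb3 was 1.59-fold lower in RANKhighFmslow cells, at 131 against 209. Of 14 macrophage markers 11 were above the guide, 2 were higher past 2-fold, C1qc (457 against 152) and Vcam1 (598 against 227), and 3 lower, Msr1 (209 against 1119), Adgre1 (228 against 739) and Cd68 (734 against 1961), around a median of 0.01.

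**Figure D3:**
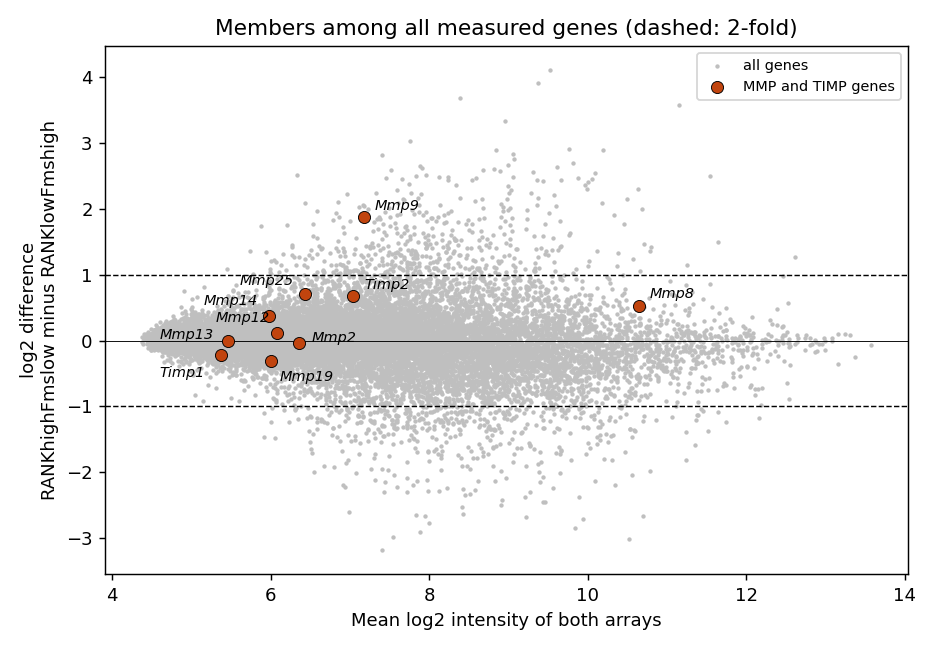
Log2 difference, RANKhighFmslow minus RANKlowFmshigh cells, against mean log2 intensity for 19935 genes (grey), with the 10 MMP and TIMP genes labelled; dashed lines mark 2-fold. Mmp9 at 1.88 is the only labelled gene outside the dashed lines.

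The rest of the family was examined for comparison. Of 14 other MMP genes measured, 0 were at least 2-fold apart in either direction, the median difference was -0.04, and 9 were under the guide in both populations. The largest difference among the 5 above it was that of Mmp11, stromelysin 3, at 93.2 in RANKhighFmslow cells and 72.7 in RANKlowFmshigh cells, at least 1.14-fold. Mmp21 stood at 89.9 against 106.9, Mmp24 at 71.6 against 82.0, Mmp28 at 79.8 against 84.6 and Mmp17, which like Mmp25 has a lipid anchor, at 84.7 against 88.3. These 5 genes lay close to the guide, and Mmp21, above it in both populations, was 1.19-fold lower in RANKhighFmslow cells.

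Neighbouring genes on the chromosome were compared with the members. In RefSeq order, 10 MMP genes stand side by side on chromosome 9 with 0 other protein-coding genes between them, in the order Mmp13, Mmp12, Mmp1b, Mmp3, Mmp1a, Mmp10, Mmp8, Mmp27, Mmp20 and Mmp7. Of these, Mmp8 alone was above the guide. The other 9 ran from 23.6 to 70.8 in RANKhighFmslow cells and from 24.0 to 76.0 in RANKlowFmshigh cells. Its direct neighbours Mmp10 (59.9 against 58.8) and Mmp27 (55.3 against 43.3) were both under the guide. Around Mmp9, the zinc finger gene Zfp335 stood at 194 against 141 and the potassium chloride transporter gene Slc12a5 at 72.0 against 78.6, so neither neighbour came near the difference of Mmp9. Beside Mmp25, Zscan10 (49.9 against 49.3) and Bicdl2 (76.8 against 59.6) were under the guide. Usp36 (128 against 112) and Cep295nl (116 against 133) stand before and after Timp2 by RefSeq start position. They were 1.14-fold higher and 1.15-fold lower in RANKhighFmslow cells. Whether either gene overlaps Timp2 was not examined.

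**Figure D4:**
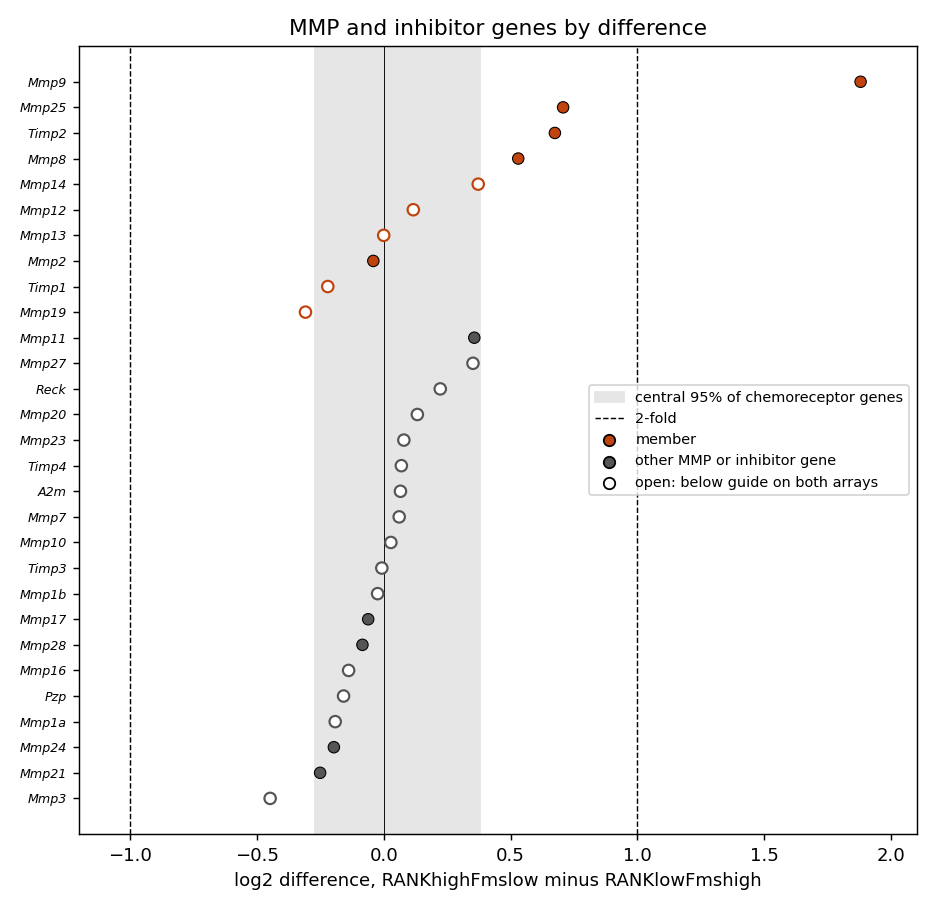
Log2 difference, RANKhighFmslow minus RANKlowFmshigh cells, of the 10 members (orange) and 19 other MMP and inhibitor genes (grey), with the central 95% of chemoreceptor genes shaded and 2-fold dashed; open circles are under the background guide in both populations. Mmp9, Mmp25, Timp2 and Mmp8 are the filled points right of the shading.

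ADAMs, which are mostly membrane-bound, and the secreted ADAMTS proteases are related metalloproteinases, and their genes differed by less than 2-fold. Of 13 genes, 0 reached 2-fold, the median was -0.18, and 6 were under the guide in both populations. Adam17, the sheddase that releases TNF and also cuts c-Fms from the cell surface, stood at 526 in RANKhighFmslow cells and 917 in RANKlowFmshigh cells, 1.74-fold lower in RANKhighFmslow cells. Adam9 stood at 196 against 299, 1.52-fold lower. Adam8, a protease of granulocytes and other myeloid cells, stood at 169 against 111, 1.53-fold higher in RANKhighFmslow cells. Adam19 stood at 244 against 191. The sheddases above background thus went in both directions.

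Activators of MMP proenzymes differed little. Of 11 measured, 0 reached 2-fold and the median was -0.19. Plau, the urokinase gene, was under the guide in RANKhighFmslow cells (56.4) and stood at 99.4 in RANKlowFmshigh cells, at least 1.19-fold lower in RANKhighFmslow cells. The neutrophil serine protease genes Ctsg (1056 against 1567) and Prtn3 (466 against 643) were lower in RANKhighFmslow cells as measured, whereas Elane (873 against 716) was higher. Pcsk7, a proprotein convertase, stood at 146 against 182. The cell surface system for plasminogen differed more. Anxa2, which encodes annexin A2, stood at 524 in RANKhighFmslow cells and 2293 in RANKlowFmshigh cells, 4.38-fold lower in RANKhighFmslow cells. Its partner S100a10, with which it forms a plasminogen-binding complex, stood at 1832 against 4730, 2.58-fold lower. The urokinase receptor gene Plaur stood at 527 against 697. All of these were lower in RANKhighFmslow cells, Anxa2 and S100a10 past 2-fold. Of the 5 genes measured in this list, 1 was more than 2-fold higher as measured, namely Serpinb2, a urokinase inhibitor, at 77.4 against 38.6, which was under the guide in both populations, so no fold is given for it.

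Proteins that bind or clear MMPs were split between the populations. Past 2-fold, 2 of 13 were higher and 2 lower in RANKhighFmslow cells, and the median was -0.40. Cd63, a tetraspanin of granule and lysosome membranes that binds Timp1, stood at 2648 in RANKhighFmslow cells and 451 in RANKlowFmshigh cells, 5.87-fold higher in RANKhighFmslow cells. Lcn2, whose human product is found joined to MMP9 in neutrophils, was 7.43-fold higher. Cd44, a hyaluronan receptor that holds Mmp9 at the cell surface, was 2.61-fold lower at 335 against 872. Lrp1, an endocytic receptor that removes MMP and TIMP complexes, stood at 120 against 305, 2.55-fold lower. Timp1, the ligand of Cd63, was itself under the guide.

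Substrates were compared last. Past 2-fold, 1 of 15 matrix genes was lower in RANKhighFmslow cells and 0 were higher, around a median of -0.04. That gene was Fn1, which encodes fibronectin and is also a monocyte marker (661 against 4187). The collagen genes Col1a1 (128 against 139) and Col3a1 (101 against 92.6) and Sparc (113 against 131), a collagen-binding glycoprotein, differed by less than 1.5-fold. Of 10 cytokine and ligand substrates 1 reached 2-fold, Il1b at 392 against 182, while Tnf stood at 214 against 314, Cxcl12 at 88.8 against 115 and Ccl7 at 107 against 87.1. Of 15 transcription regulators that act on MMP genes, 4 were higher in RANKhighFmslow cells past 2-fold and 0 lower, around a median of 0.19. These were Ets1 (429 against 162), Egr1 (309 against 122), Cebpe, which neutrophil secondary granule genes need in mice (387 against 159), and the AP-1 subunit gene Fosb (464 against 230). Spi1, which encodes PU.1, stood at 196 against 390, 1.99-fold lower in RANKhighFmslow cells.

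**Figure D5:**
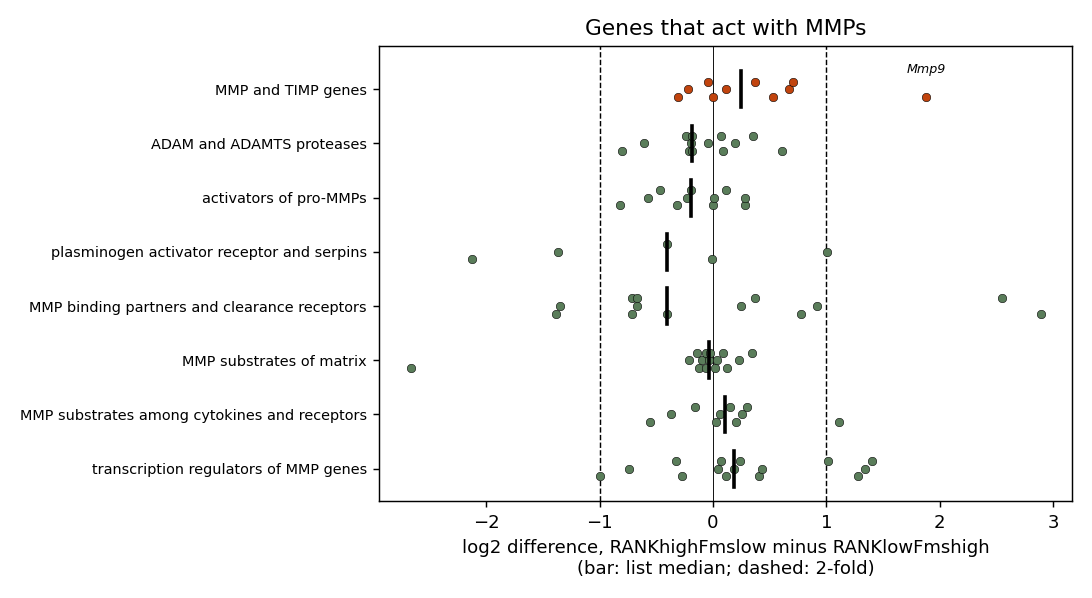
Log2 difference, RANKhighFmslow minus RANKlowFmshigh cells, of the 10 MMP and TIMP genes and of 7 lists of genes that act with MMPs; each point is a gene, the bar is the list median and dashed lines mark 2-fold. No ADAM or activator gene passes the dashed lines, and binding partners lie beyond them on both sides.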

How the data were processed

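Total RNA of 2 sorted marrow populations was amplified to cDNA and hybridised to 1 array each. The authors deposited 1 linear intensity per probe set and array; GCOS 1.4 and RMA are named per the submitters' processing notes, while their roles, the genome build and the scaling were not given in the sources used here. Columns ran from 19.9 to 13198 in RANKhighFmslow cells and from 20.3 to 13453 in RANKlowFmshigh cells, with medians of 94.5 and 92.6.

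Intensities were put on the log2 scale without a pseudocount or further scaling (Python 3.11.15, pandas 2.3.3, numpy 2.4.6). By the platform annotation, 21780 of 28815 probe sets named 1 gene, 1605 named several and 5430 were not listed. Probe sets of a gene were averaged, which gave 19935 genes. All 10 member symbols were unchanged in RefSeq. Genes were counted at 2-fold or more, with no filter on level. Above the median level, genes with 2 probe sets (509) had a median gap of 0.19 between their differences. Probe sets of near-identical genes may cross-hybridise.

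The members, the 23 other lists and the background guide were chosen with earlier results of these data known. The promoter motifs were chosen with the sequences in view. Named genes are the members and, from each list described, genes among the leading 4 by absolute difference above the guide or needed to account for small counts; not every leading gene is named. Other list genes and neighbours were chosen after their values were seen. The planned search for genes most like Mmp9 is not reported, because its lower value was under the guide. Precision is limited by the number of arrays.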

Additional observations from a re-analysis of the deposited data

How the results depend on the processing

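The count of members at least 2-fold apart (1, Mmp9) was 1 under a pseudocount of 32, quantile normalization and median centring. It was also 1 with bounds against the 95th or 99th percentile of the receptor genes. Both other rules for probe sets gave 1, but each member has only 1 probe set. Both filters on level, which left 4 and 3 members, gave 1 too. Mmp9 passes these filters only through its value of 277 in RANKhighFmslow cells, so they are no check on the count. At 1.5-fold the count was 3, with Mmp25 and Timp2 added by measured values, beside 6.16% of all genes at least 1.5-fold higher. Only Mmp9 and Timp2 keep 1.5-fold once bounds are used at the 95th percentile. The 99th percentile was 140.0 in RANKhighFmslow cells and 119.7 in RANKlowFmshigh cells. Against it Mmp25 (110.2 and 67.5) was under background in both populations and has no fold. The lower value of Timp2 (104.2) was also under it, and Timp2 no longer kept 1.5-fold. The difference of Mmp9 ran from 1.21, the bound against the 99th percentile, to 1.88. No member changed sign apart from Mmp13, which is tied as deposited and stood at -0.01 under median centring and -0.02 under quantile normalization. Over the 213 genes of the other lists, the count of 71 at least 2-fold apart ran from 65 to 71 under the other settings. At the lower threshold of 1.5-fold it was 96. All of these counts stayed within 1.5 times of 71. With 1 array per population no replicate could be left out and no paired fit was possible.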
